A study of Rattus norvegicus with 6 samples.

Results

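Caspases are cysteine proteases that cut proteins after aspartate, and 7 members of the family were followed in the jejunum of stressed and control rats: Casp1, Casp2, Casp4, Casp6, Casp8, Casp9 and Casp12. They were found through the RefSeq accession that the array design gives for each probe, whatever their values, and 8 of the 41012 probes matched, with 2 probes for Casp9 and 1 for each of the other genes. The array names 13438 genes in this way. All rats were male Sprague-Dawley rats aged 6 weeks and housed at 25°C. On each of 3 days the S3d rats spent 2 h at 35°C under a vibration of 0.1 g, whereas control rats received no such stress. Jejunal RNA pooled from 3 rats made up each sample, with 3 samples per group on 1-colour Agilent arrays, and the labels give 10 rats per group. The study's text gives a smaller number, too few for every pool to hold different rats, so whether pools shared rats is not settled by the sources. Each pool was counted as 1 replicate, so the spread between samples is that of pools and not of single rats. The comparison asks which caspase transcripts differed between the S3d and the control jejunum.

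Initiator caspases are activated on large adaptor complexes and switch on the effector caspases, which then dismantle the cell. Casp2, Casp8 and Casp9 are initiators, and Casp6 is an effector. Casp1, Casp4 and Casp12 are classed as inflammatory: Casp1 and Casp4 drive cytokine release and lytic cell death, and Casp12 sits at the endoplasmic reticulum (ER) and has been tied to cell death under ER stress in rodents. The intestine sheds its epithelial cells without pause, and caspases act in that turnover. These enzymes are made as inactive precursors, so a transcript level does not show enzyme activity.

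The labels of the arrays conflict between both sources of data. All 6 columns of the normalized table that was deposited ranked the probes as the scanner file of the same replicate number but the opposite group did, with Spearman's rho rounding to 1, against 0.942 to 0.952 for the scanner file carrying their own label. No sample was reassigned. Values below come from the scanner files by their own labels, and the deposited table is given beside them by its own labels. The control arrays and the S3d arrays lay on separate slides, and the slide of the arrays labelled control was scanned 450 days after the other. Slide, scan time and group cannot be told apart. On the arrays labelled control the processed signal had a 75th percentile of 414 to 430, and on those labelled S3d one of 1456 to 1566, and no spot was flagged as saturated. Levels are therefore given on the log2 scale relative to that percentile of each array, so that 0 is a spot at the percentile.

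The initiator caspases and the effector Casp6 moved apart. Relative to the rest of the array, all 4 initiator probes were lower on the arrays labelled S3d and the Casp6 probe was higher, while the inflammatory caspases split, with Casp1 higher, Casp12 lower and Casp4 not called (all 8 probes were higher when the arrays were not scaled). The direction opposes that of the study's text, where Casp2, Casp8, Casp9 and Casp12 go the other way on the arrays, as they do in the deposited table. By RT-PCR, in which Casp2 was not measured, Casp8, Casp9 and Casp12 go that other way as well. The study also reports more Casp12 protein at the villus tip by immunohistochemistry. All 8 probes were well above background on all 6 arrays and all were tested. Of these, 7 were called at an adjusted p under 0.05 (limma, Benjamini-Hochberg over all probes tested), 2 higher and 5 lower. Over the whole array 73.9% of the 31424 tested probes were called, 39.4% higher and 34.5% lower, so a called caspase was the usual case on these arrays. The groups did not overlap for 7 of the 8 caspase probes and for 78.2% of all tested probes. The median log2 difference was -0.28 over the caspase probes and 0.09 over all tested probes.

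**Figure D1:**
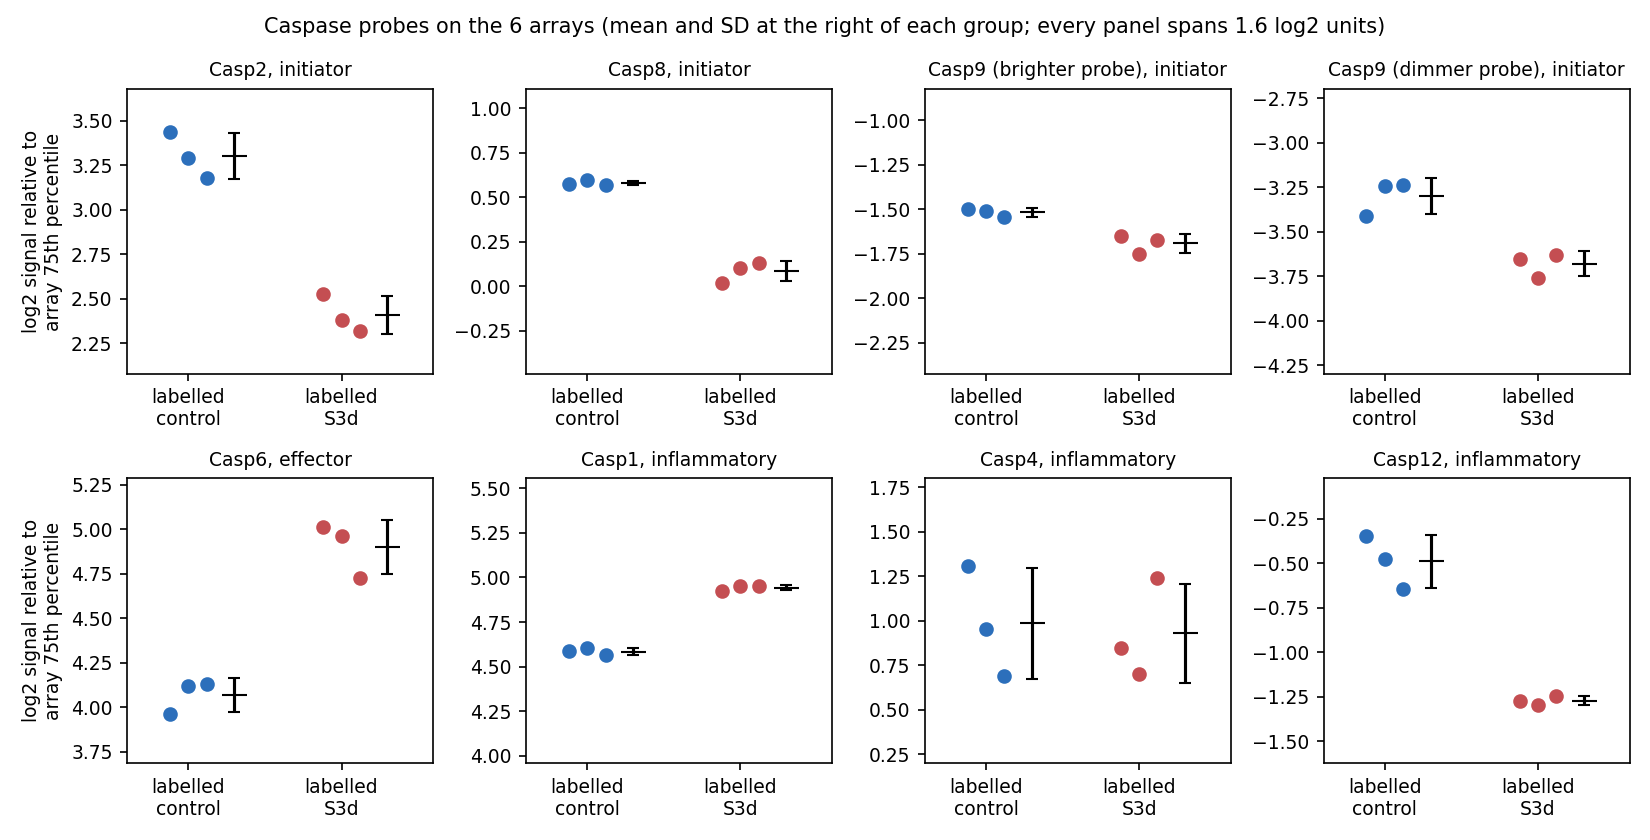
Each panel shows the log2 signal of 1 caspase probe relative to the array's 75th percentile on the 3 arrays labelled control (blue) and the 3 labelled S3d (red), with the mean and SD of each group at its right. The groups overlap for Casp4 alone, and the S3d values lie above the control values for Casp6 and Casp1 and below them in the other 5 panels.

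Casp2, an initiator activated in response to DNA damage and other stress, had the largest difference of the 7 genes on this scale and with median centring, but not with quantile normalization, where those of Casp6, Casp12 and Casp1 were larger. Its level was 3.44, 3.29 and 3.18 on the control arrays and 2.53, 2.38 and 2.32 on those labelled S3d. Every S3d value lay below every control value. The means were 3.30 ± 0.13 and 2.41 ± 0.11 (SD, n = 3 each), a log2 difference of -0.89 (SE 0.096, 95% interval -1.13 to -0.66) or 1.86-fold lower, with an adjusted p of 0.00032 (limma). In the deposited table the difference was 0.67 (adjusted p = 0.00081, limma).

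Casp8 relays the signal of death receptors at the cell surface. Its level was 0.57, 0.59 and 0.57 on the control arrays, a spread of 0.013 (SD, n = 3), and 0.02, 0.10 and 0.13 on those labelled S3d. The groups did not overlap. The log2 difference was -0.50 (SE 0.061, 95% interval -0.64 to -0.35), or 1.41-fold lower, with an adjusted p of 0.00058 (limma). In the deposited table it was 0.48 (adjusted p = 0.00067, limma).

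Casp9 is the initiator of the mitochondrial pathway and was read by 2 probes that moved the same way. The brighter probe stood at -1.50, -1.51 and -1.55 on the control arrays and at -1.65, -1.75 and -1.67 on those labelled S3d. The groups were separated by a narrow gap. Its log2 difference was -0.17 (SE 0.061, 95% interval -0.32 to -0.02, adjusted p = 0.040, limma). Omitting a single array cost this call in 5 of 6 cases, all but that of S3d replicate 1, with differences from -0.19 to -0.14 and adjusted p-values up to 0.13 (limma). The dimmer probe stood at -3.41, -3.25 and -3.24 on the control arrays and at -3.65, -3.76 and -3.63 on those labelled S3d. It differed by -0.38 (SE 0.079, 95% interval -0.58 to -0.19, adjusted p = 0.0055, limma), without overlap and whichever array was left out. The difference of both probes on the same array changed by -0.21, without overlap, at an exact two-sided permutation p of 0.10, the smallest that 3 against 3 arrays allow. With both probes averaged, Casp9 differed by -0.28 (adjusted p = 0.0061, limma).

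The effector Casp6, which cuts nuclear lamins, was higher on the arrays labelled S3d. Its level was 3.96, 4.12 and 4.13 on the control arrays and 5.01, 4.96 and 4.73 on those labelled S3d. All S3d values were above all control values. The means were 4.07 ± 0.094 and 4.90 ± 0.15 (SD, n = 3 each), a log2 difference of 0.83 (SE 0.10, 95% interval 0.58 to 1.08) or 1.78-fold higher, with an adjusted p of 0.00053 (limma). In the deposited table the difference was -1.28 (adjusted p = 0.00014, limma), the largest of the caspase probes there.

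Casp1, the protease of the inflammasome that matures interleukins, had the narrowest spread of the inflammatory caspases. Its level was 4.58, 4.60 and 4.56 on the control arrays and 4.92, 4.95 and 4.95 on those labelled S3d. The log2 difference was 0.36 (SE 0.056, 95% interval 0.22 to 0.50), or 1.28-fold higher, without overlap and with an adjusted p of 0.0015 (limma). In the deposited table it was -0.81 (adjusted p = 0.00010, limma). The highest processed signals of Casp1 and Casp6 were 48439 and 48405 units, both on arrays labelled S3d.

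Casp4, which senses bacterial lipopolysaccharide inside cells, varied most between replicates. Its level was 1.31, 0.96 and 0.69 on the control arrays and 0.85, 0.70 and 1.24 on those labelled S3d. The groups covered nearly the same range. The log2 difference was -0.06 (SE 0.21, adjusted p = 0.82, limma), and its 95% interval of -0.56 to 0.45 includes differences as large as those called for Casp1 and Casp8. The difference turned to 0.11 without control replicate 1 and to 0.06 without S3d replicate 2.

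Casp12 stood at -0.35, -0.47 and -0.65 on the control arrays and at -1.28, -1.30 and -1.24 on those labelled S3d. All S3d values were lower. The means were -0.49 ± 0.15 and -1.27 ± 0.026 (SD, n = 3 each), a log2 difference of -0.78 (SE 0.090, 95% interval -1.002 to -0.56) or 1.72-fold lower, with an adjusted p of 0.00042 (limma). In the deposited table the difference was 0.82 (adjusted p = 0.00045, limma). Casp1, Casp4 and Casp12 are neighbours on chromosome 8 in the RefSeq annotation, and the outer 2 of the 3 were called in opposite directions.

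By class, the 4 initiator probes had a median log2 difference of -0.44, the effector probe 0.83 and the 3 inflammatory probes -0.06. Fewer cells of a type and less RNA per cell cannot be told apart in RNA of whole tissue. These classes hold 3, 1 and 3 genes and are described without a test.

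**Figure D2:**
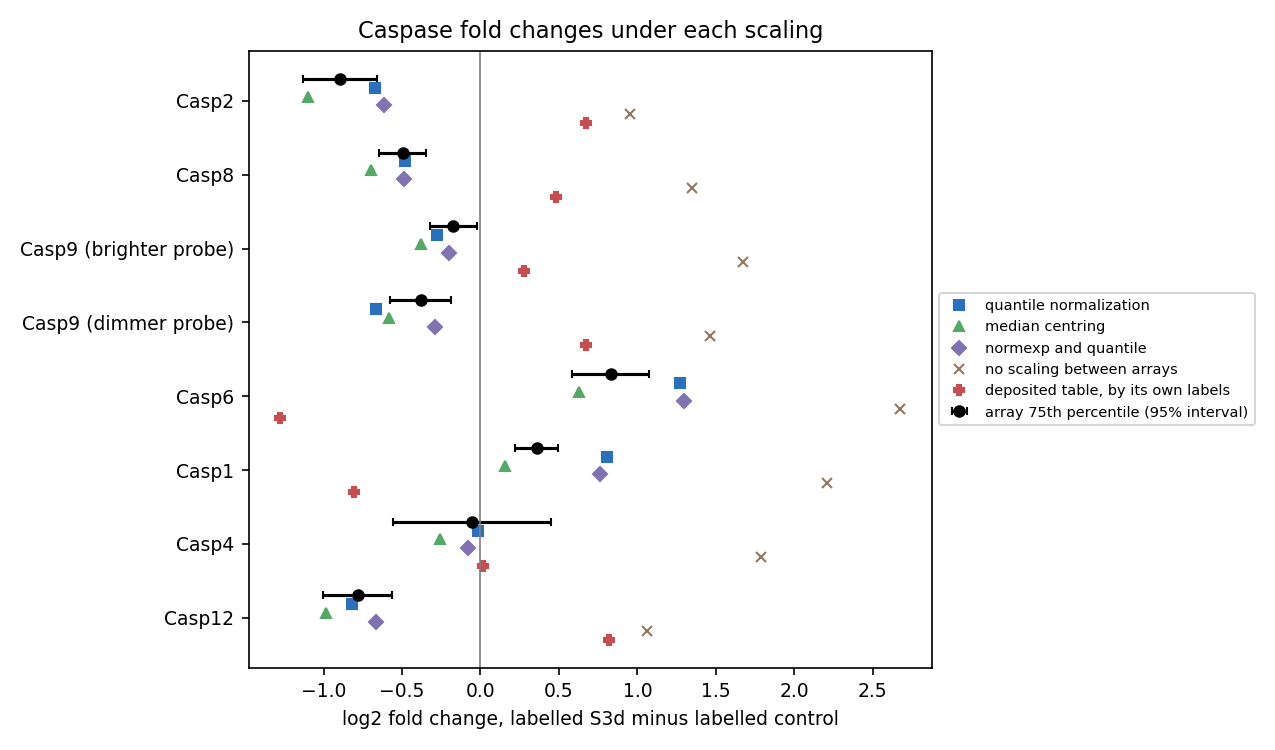
The log2 difference between the arrays labelled S3d and control is drawn for each caspase probe under 6 treatments of the data, with the 95% interval for the scaling to the 75th percentile. The 4 scalings of the scanner files keep each called sign (Casp6 0.63 to 1.29, Casp12 -0.98 to -0.67), the unscaled signals put all 8 probes above 0, and the deposited table by its own labels lies on the other side of 0.

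How the arrays were brought to a common scale moved the size of each difference. With quantile normalization, which gives all arrays the same distribution, Casp6 differed by 1.27, Casp1 by 0.80, Casp2 by -0.67, Casp8 by -0.48, Casp12 by -0.82 and Casp9 by -0.28 and -0.66. Median centring moved the median of all tested probes by -0.20 and gave 0.63 for Casp6, 0.16 for Casp1 (adjusted p = 0.049, limma) and -1.10 for Casp2. The same 7 caspase probes were called in the same directions under both, and under normexp background correction with quantile normalization, where 69.8% of all probes were called. The deposited table also called these 7, in the opposite directions, beside 69.9% of all probes. Normexp scaled to the 75th percentile, chosen after seeing the data, called 0 of the 8 caspase probes and 1737 of all probes. Over all probes, 53.4% of the calls were higher with the 75th percentile and 42.9% with median centring. Without any scaling, the median of all tested probes was 1.93 and all 8 caspase probes were above 0, with 6 of the 8 below that median and Casp1 (2.21) and Casp6 (2.68) above it.

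The differences also ran with signal strength over the whole array. The tested probes were divided by mean signal into 4 groups of 7856, whose median log2 differences were 0.68, 0.16, 0.02 and -0.27 from the dimmest to the brightest. The dimmest group held no caspase probe, and the brightest held Casp1, Casp2, Casp4 and Casp6. Casp6 (0.83) and Casp1 (0.36) were thus higher in a group whose median was below 0, where 25.3% of the probes were called higher and 52.3% lower. Whether signal strength had a part in the caspase differences was not tested.

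**Figure D3:**
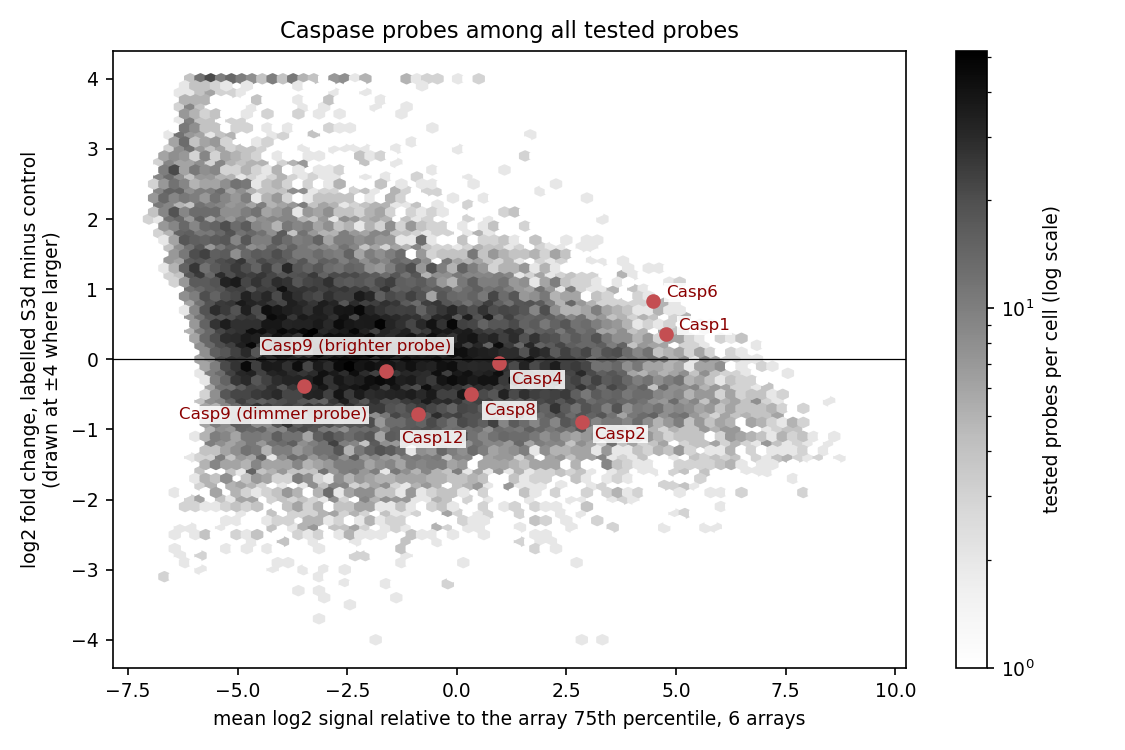
The log2 difference of each tested probe (labelled S3d minus control) is plotted against its mean log2 signal over the 6 arrays, in grey by the number of probes per cell on a log scale, with the 8 caspase probes in red. The grey cloud tilts downwards from dim to bright probes, and Casp6 (0.83) and Casp1 (0.36) lie above 0 on the bright side while Casp2 (-0.89) lies below 0.

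A scale shared by all probes of an array cancels in the difference between 2 caspases on that array, so such differences were compared as well. Of the 21 pairs among the 7 genes, 17 had no overlap between the groups, and 14 of the 15 pairs without Casp4. Of all single tested probes 78.2% had no overlap, and the share among pairs of other probes was not computed. The difference of Casp6 to Casp2 changed most, by 1.72 on the log2 scale, followed by Casp6 to Casp12 with 1.61 and Casp6 to Casp8 with 1.33. Casp1 against its neighbour Casp12 changed by 1.14. The exact two-sided permutation p was 0.10 for each of these pairs, the smallest that 6 arrays allow, and 0.12 after adjustment over the 21 pairs. The difference of Casp12 to Casp2 changed by 0.11, with overlapping groups (exact two-sided permutation p = 0.30). Each caspase was also compared with the median of the 7 on its array, which was Casp4 on all 6 arrays. In this difference the groups did not overlap for Casp2, Casp6 and Casp12 (exact two-sided permutation p = 0.10, 0.175 after adjustment). They overlapped for Casp1 and Casp8 (exact p = 0.20 each) and for Casp9 (exact p = 0.60). With quantile normalization Casp12 (-0.82) lay below Casp2 (-0.67), so that Casp6 to Casp12 changed most there. The same pair changed most with normexp and quantile normalization. It also did in the deposited table, with the sign turned (Casp6 -1.28, Casp12 0.82). The pairs were chosen after the values were seen, and a distortion that depends on signal strength does not cancel in them.

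**Figure D4:**
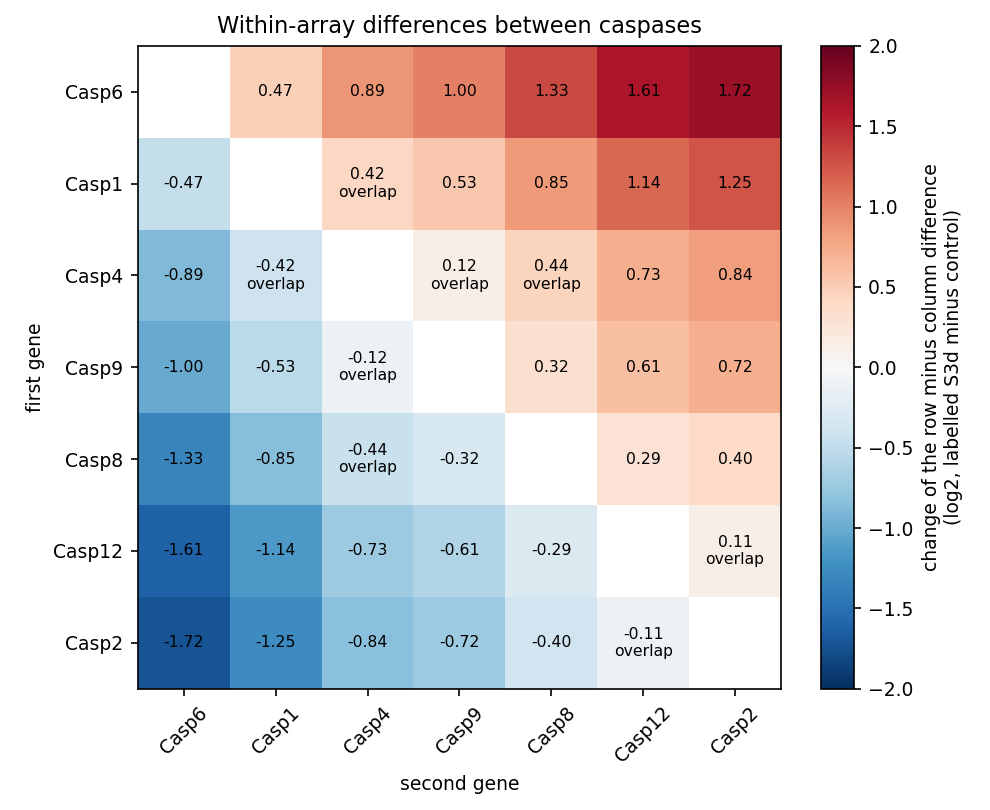
Each cell gives the change, from the arrays labelled control to those labelled S3d, of the within-array log2 difference of the row gene minus the column gene. On the scale used for the single caspases, the differences of Casp6 and Casp1 to the caspases listed below them changed by 0.42 to 1.72. The largest on that scale was Casp6 against Casp2, and the 4 pairs whose groups overlap are marked. With quantile normalization Casp6 (1.27) against Casp12 (-0.82) changed most, with Casp2 at -0.67. The same pair changed most with normexp and quantile normalization. It also did in the deposited table, with the sign turned (Casp6 -1.28, Casp12 0.82, Casp2 0.67).

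Promoter sequences are shown for the neighbours called in opposite directions, Casp1 and Casp12, and for Casp6 and Casp2, with the largest difference above and below 0 on this scale. With quantile normalization Casp12 (-0.82) lay below Casp2 (-0.67), and in the deposited table Casp6 (-1.28) was the lowest and Casp12 (0.82) the highest. They are the 250 bases before the annotated start, from RefSeq on GRCr8, each on the plus strand and written 5′ to 3′. Capitals mark the core of the interferon-stimulated response element in Casp1 and Casp12 and the GC box in Casp6 and Casp2. The positions are chr8:10872580-10872829 for Casp1, chr8:10926938-10927187 for Casp12, chr2:221140136-221140385 for Casp6 and chr4:72116107-72116356 for Casp2.
Casp1: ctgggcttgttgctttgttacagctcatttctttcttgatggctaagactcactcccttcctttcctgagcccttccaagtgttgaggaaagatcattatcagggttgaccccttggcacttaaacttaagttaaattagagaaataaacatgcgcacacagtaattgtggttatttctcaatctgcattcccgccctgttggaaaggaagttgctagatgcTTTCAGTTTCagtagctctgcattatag
Casp12: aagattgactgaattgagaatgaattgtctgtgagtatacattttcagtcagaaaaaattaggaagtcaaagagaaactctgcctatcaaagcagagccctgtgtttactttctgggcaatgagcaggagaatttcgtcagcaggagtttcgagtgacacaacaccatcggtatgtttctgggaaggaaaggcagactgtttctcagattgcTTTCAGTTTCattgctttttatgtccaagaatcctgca
Casp6: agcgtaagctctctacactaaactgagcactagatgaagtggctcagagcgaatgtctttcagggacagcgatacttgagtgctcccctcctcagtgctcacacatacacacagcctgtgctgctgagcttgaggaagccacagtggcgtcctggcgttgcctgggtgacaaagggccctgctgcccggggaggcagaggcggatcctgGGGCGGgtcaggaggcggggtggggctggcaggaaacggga
Casp2: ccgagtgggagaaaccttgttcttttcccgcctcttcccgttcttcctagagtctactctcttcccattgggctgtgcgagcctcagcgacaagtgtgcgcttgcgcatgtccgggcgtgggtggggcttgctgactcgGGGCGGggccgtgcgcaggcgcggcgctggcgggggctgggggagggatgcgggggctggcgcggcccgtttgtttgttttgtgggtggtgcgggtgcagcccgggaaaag

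The promoters of 5 of the 7 genes were in the table, and those of Casp4 and Casp8 were not used here. Motifs were searched on both strands over 300 bases, from 250 before to 50 after the start, and were chosen after the caspase values were known. The response element core, a GAAA followed after 2 bases by a second GAAA, was found in Casp1 and Casp12, in both as TTTCAGTTTC on the plus strand and beginning 28 and 38 bases before the start, and in 3.92% of the 33469 promoters. The GC box GGGCGG was in Casp2, Casp6, Casp9 and Casp1 and in 33.1% of all promoters. The heat shock element GAANNTTC, in 8.59% of all promoters, and the same with a further GAA after 2 more bases, in 0.795%, were in none of the 5 windows. CCAAT, in 37.5% of all promoters, was in Casp2, and TATAAA (14.2%) and TTCNNNGAA (8.87%) were in Casp12. Casp2 and Casp9 held 27 and 24 CpG dinucleotides, Casp6 held 16, and Casp1 and Casp12 held 4 and 3, against a median of 7 over all promoters. A match describes the letters only, and a missing match says nothing of any factor.

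Genes that work with the caspases were read by their brightest probe, relative to the 75th percentile. Rose and fell are meant here by the labels of the scanner files. By the labels of the deposited table the called genes named below had the opposite sign, except Krt18 (-0.24), Hspa5 (-0.30) and the marker Vil1 (-0.24). The counts in the lists stand beside 73.9% of all tested probes called, and beside 69.8% with normexp and quantile normalization. The caspase-like or caspase-binding genes called lower were Cflar, an inhibitory relative of Casp8 and its neighbour on chromosome 9 (-1.10, adjusted p = 0.00010), Casp8ap2, which binds Casp8 (-1.01, adjusted p = 9.9e-05), and Espl1, the separase of cell division (-0.42, adjusted p = 0.0014; all limma). Cflar fell from 0.98, 0.73 and 0.73 to -0.28, -0.29 and -0.29. The second probe of Casp8ap2 was not called, at -0.10 (adjusted p = 0.38, limma), with overlapping groups.

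Among the platforms that activate initiator caspases, 9 of the 12 tested genes were called, 3 higher and 6 lower, with a median of -0.30 (-0.15 and 10 called with normexp and quantile normalization). Apaf1, the scaffold on which Casp9 is activated, fell from 1.68, 1.62 and 1.59 to 0.17, 0.17 and 0.41 (log2 difference -1.38, adjusted p = 4.3e-05, limma). Ripk1, a kinase of the death receptor complexes, fell by 0.92, and Cradd, an adaptor of Casp2, fell by 0.89. Bid, which Casp8 cuts to reach the mitochondrion, rose by 1.02 (adjusted p = 0.00011, limma), from -1.21, -1.13 and -1.25 to -0.09, -0.12 and -0.32. Quantile normalization kept all 4 signs.

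Of the inflammasome genes around Casp1, 4 of the 10 tested were called and all 4 were lower, with a median of -0.28. With normexp and quantile normalization 6 were called, among them Nlrp6 (0.31) and Il1rn (0.37) higher, named after their values were seen, while Il18bp was not called (-0.25) and Pycard differed by -0.24. Il18, which Casp1 matures, stood at 3.34, 3.13 and 3.49 on the control arrays and 1.96, 2.20 and 2.21 on those labelled S3d, a log2 difference of -1.20 (adjusted p = 0.00026, limma). Mefv, the pyrin sensor, fell by 1.30 and Pycard, the adaptor between sensors and Casp1, fell by 0.82. Il18bp, which binds the mature Il18, fell by 0.39 (adjusted p = 0.036, limma).

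All 11 tested caspase inhibitors and antagonists of inhibitors were called, 5 higher and 6 lower, with a median of -0.30. With normexp and quantile normalization 9 were called and the median turned to 0.11. Serpinb9, an inhibitor of granzyme B, rose by 1.56 (adjusted p = 0.00023, limma), from -2.98, -3.17 and -2.67 to -1.57, -1.24 and -1.34. Birc2, an inhibitor of apoptosis that acts as a ubiquitin ligase, rose by 1.35. Birc5, the survivin of dividing cells, fell by 1.38 and Birc6, a large member of the same family, fell by 1.23.

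Among caspase substrates and executioner nucleases, 10 of 13 were called, 2 higher and 8 lower, with a median of -0.26. With normexp and quantile normalization 9 were called and the median turned to 0.085. Acin1, a chromatin protein cut in apoptosis, fell by 0.71, and Pak2, a kinase that caspases activate by cleavage, fell by 0.54. Lmnb1, a lamin of the nuclear envelope, rose by 0.57 (adjusted p = 0.0073, limma). Krt18, an epithelial keratin, differed by -0.58 (adjusted p = 0.00031, limma), but by 0.22 with quantile normalization, and its second probe had the other sign. The signs of the first 3 held with quantile normalization.

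Of genes tied to Casp12 at the ER, 5 of 8 were called, 1 higher and 4 lower, with a median of -0.10, which turned to 0.17 with normexp and quantile normalization (5 called). Capn1, a calpain of the protease family that can cut Casp12, fell by 0.84 (adjusted p = 6.1e-05, limma), and Vcp, an ATPase of the ER degradation pathway, rose by 0.45 (adjusted p = 0.0030, limma). Hspa5, the main ER chaperone, differed by -0.47 (adjusted p = 0.015, limma) but by 0.28 with quantile normalization. Capns1, the small calpain subunit, differed by -0.26 (adjusted p = 0.013, limma) and by -0.04 with quantile normalization, and its sign turned with normexp background correction (0.11).

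**Figure D5:**
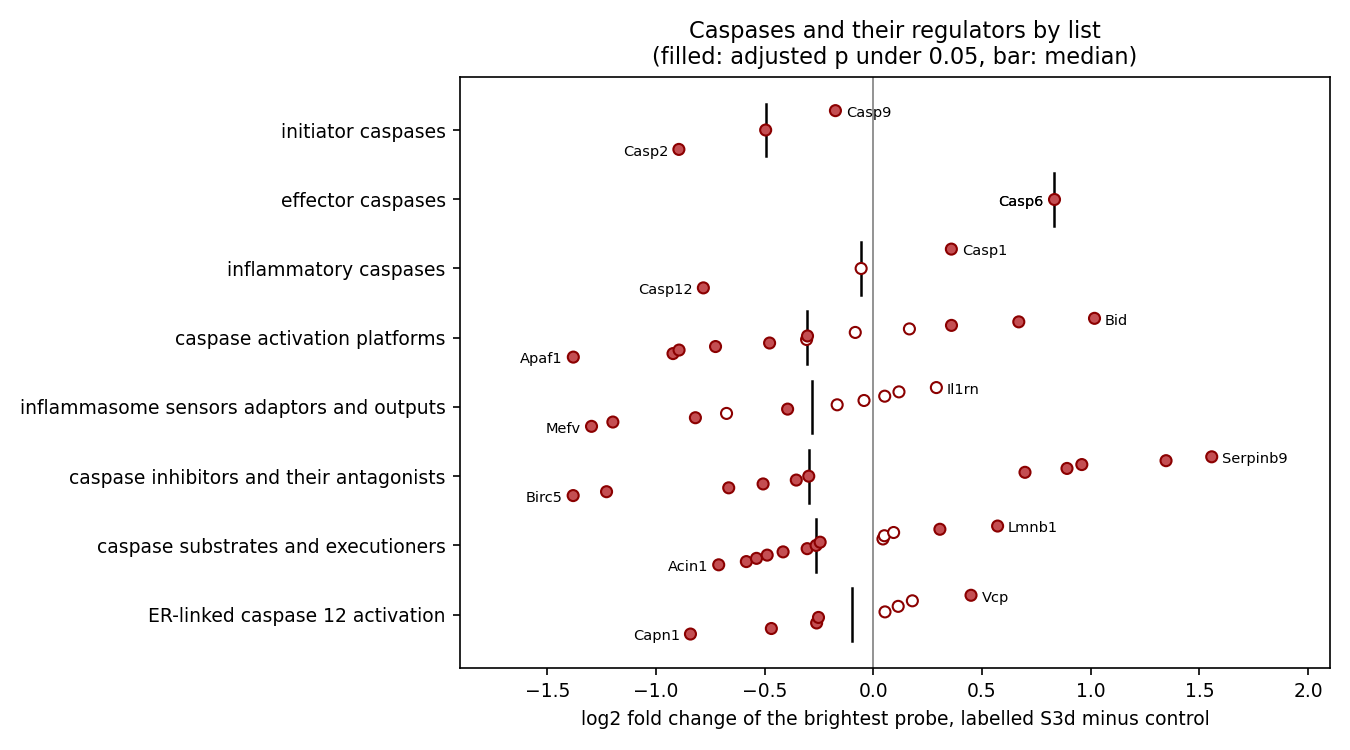
Each point is the log2 difference (labelled S3d minus control) of the brightest probe of 1 gene, grouped by its role around the caspases, filled where the adjusted p was under 0.05, with a bar at the median of the list and the extreme genes named. The initiators lie left of 0 and Casp6 to the right, the inhibitors spread to both sides from -1.38 (Birc5) to 1.56 (Serpinb9), and no inflammasome gene was called to the right of 0 on this scale, though Nlrp6 (0.31) and Il1rn (0.37) were with normexp and quantile normalization.

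Over 6 arrays, 2624 of 11095 other named genes had a Pearson correlation above 0.95 with Casp2, the caspase of the largest difference on this scale, and the most alike were Smu1, Bok and Emp3 (r of 0.9998, 0.9989 and 0.9986). For Casp4, the caspase of the smallest difference, 11 genes did, led by Dcdc2 (0.987), Rnf26 (0.984) and Igsf5 (0.970). These points share their arrays and the difference between the slides, and the values are a description.

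Markers of the cell types of the gut moved with the labels too. Enterocyte markers were well above background on all 6 arrays in all 11 tested genes, Vil1 and Fabp1 among them, as the tissue label requires. Of these, 8 were lower and 1 higher on the arrays labelled S3d, with a summed level of 3601 to 4017 against 1625 to 1681 times the 75th percentile, although with normexp and quantile normalization the median of the list was 0.36. Of 15 leukocyte markers 4 were higher and 10 lower (summed level 169 to 187 against 97.7 to 110, 9 called with normexp and quantile normalization). Of 4 goblet and Paneth markers 2 were lower (922 to 971 against 377 to 389), but their median turned from -0.38 to 0.36 with normexp and quantile normalization, and all 3 erythrocyte markers were lower (42.6 to 49.5 against 15.7 to 29.4). Smooth muscle markers (130 to 157 against 132 to 152) and stromal and endothelial markers (148 to 163 against 158 to 172) overlapped or lay close in their sums. Single genes of both lists still differed, in both directions. Of 7 smooth muscle markers 2 were called higher and 3 lower, and of 9 stromal and endothelial markers 2 higher and 3 lower. No tested marker was below background. The part of cell composition in the caspase differences was not tested.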

How the data were processed

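For all arrays the authors deposited files of Agilent Feature Extraction 10.7.3.1, and the intensity taken from them is the processed signal, corrected for background by that program but not scaled between arrays. A deposited table holds log2 values whose 6 sorted columns differ by at most 0.0025, that is, quantile-normalized values. Outlier spots and control spots were left out and repeated spots averaged. A probe was tested where all 3 arrays of either group had it well above background. The test was limma (version 3.58.1, R 4.3.3) with lmFit and eBayes, no block, and Benjamini-Hochberg adjustment over all 31424 tested probes, and called at an adjusted p under 0.05. The brightest probe stands for a gene in the lists. On simulated data 105 of 200 probes changed by 0.8 on the log2 scale were recovered among 31137, each in its true direction, beside 5 false calls. Pairs were tested with scipy 1.17.1. Probes were named through RefSeq accessions and the RefSeq table of GRCr8, which named 16968 of 41012 probes. All 7 caspases were described, and of each list up to 4 called genes with the largest differences, measured on all 6 arrays and without overlap. Some genes of the lists are not reported here. The members and gene lists were chosen with earlier results of these data known. Alternatives were other scalings, normexp with an offset of 50 (on the median signal, since no mean signal was given), other filters, outlier spots kept, the deposited table, the replicate number as a block, the analysis of variance the methods name, the mean over a gene's probes, and each array left out. The number of arrays limits the precision.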

Additional observations from a re-analysis of the deposited data

How the results depend on the processing

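The 7 called caspase probes kept direction and call under quantile normalization, median centring, normexp with quantile normalization, outlier spots kept, the stricter filter and the methods' analysis of variance (7 called, 69.4% of all probes after adjustment, 72.8% before). By its own labels the deposited table reversed all 8 probes: Casp2 0.67, Casp8 0.48, Casp9 0.28 and 0.67, Casp6 -1.28, Casp1 -0.81, Casp4 0.0173 and Casp12 0.82. This follows from its labels being exchanged against those of the scanner files. Without scaling, Casp2 (0.95), Casp8 (1.35), Casp9 (1.67 and 1.46), Casp4 (1.79) and Casp12 (1.06) reversed, and 29589 of 30171 called probes were higher. Normexp scaled to the 75th percentile, chosen after seeing the data, moved the median of all probes by -0.77 and called 1737 probes (12023 at an unadjusted p under 0.05) and 0 caspase probes (3 unadjusted, limma), with Casp4 at 0.0788. The cause was not tested. Under that setting Casp6 was 1.37 (adjusted p = 0.089), Casp1 0.86 (0.16), Casp12 -0.98 (0.056), Casp2 -0.38 (0.50), Casp8 -0.47 (0.17) and Casp9 -0.62 (0.17) and -1.62 (0.11).

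Leaving out each array in turn called 21450 to 22817 probes and 6 to 7 caspase probes, with Casp4 from -0.21 to 0.11. With the replicate number as a block, 22230 probes and 6 caspase probes were called, since Casp9 lost its call on the brighter probe (adjusted p = 0.090, limma). It also lost it with no filter on dim probes (adjusted p = 0.071). Arrays of the same number did not deviate together (correlations of 0.020, 0.022 and -0.049, against -0.077 to 0.062 for arrays of different numbers). With 3 arrays per group this cannot settle whether the numbers pair samples.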
